A study of Homo sapiens with 5 samples.

Results

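The genes described here are 8 that encode the epithelial basement membrane protein laminin-332 and the integrins that hold epithelial cells to the matrix. They are LAMA3, LAMB3, ITGA2, ITGA3, ITGA6, ITGB1, ITGB4 and ITGB6, 8 of 20136 annotated protein-coding genes, and their peaks are those centred from 20 kb upstream of the annotated gene start to the gene end on hg19. The gene windows covered 939.0 kb and held 45 of 33966 ATF3 peaks from untreated cells, 73 of 70702 ATF3 peaks after camptothecin, 1 of 2231 peaks from ATF3-knockout cells, 8 of 9211 p53 peaks after camptothecin and 4 of 7879 peaks from p53-knockout cells.

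The study mapped ATF3, a stress-induced transcription factor of the ATF/CREB family, and the tumour suppressor p53 by ChIP-seq in HCT116, an established human colorectal cancer cell line. ATF3-Ctrl was ATF3 chromatin from wild-type cells given the solvent DMSO, and ATF3-CPT was the same chromatin after 1.5 uM camptothecin, a topoisomerase I poison that breaks DNA, for 4 h. ATF3-KO was ATF3-antibody chromatin from DMSO-treated cells with both ATF3 alleles disrupted by virus-mediated homologous recombination, p53-CPT was p53 chromatin from camptothecin-treated wild-type cells, and p53-KO was p53-antibody chromatin from DMSO-treated p53-knockout cells. All cells were crosslinked with 1 mM of a protein crosslinker (DSG) for 45 min and then with 1% formaldehyde for 10 min. Each condition was 1 library and the ATF3-knockout line came from clonal selection, so no spread between cultures could be measured and no test was made. Intervals of peak values and of ratios at single sites are 95% intervals that cover counting error only, and those of shares are 95% Wilson intervals over peaks. The p53-CPT and p53-KO libraries differed in genotype and in treatment, which cannot be told apart, and no ATF3-knockout library was made from treated cells. Libraries held 12947516 (ATF3-Ctrl), 15457013 (ATF3-CPT), 12820520 (ATF3-KO), 3169743 (p53-CPT) and 1984941 (p53-KO) tags, which are mapped reads. Peaks are given by their normalized tag count, the tags in the peak scaled to a library of 10000000 tags, so that 1 tag counted 0.772 in ATF3-Ctrl and 0.647 in ATF3-CPT.

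Laminin-332 is a laminin with the alpha3 and beta3 chains, which LAMA3 and LAMB3 encode, and it anchors epithelial cells to the basement membrane. Integrins are receptors made of an alpha and a beta subunit: the alpha6 beta4 pair binds laminin-332 in hemidesmosomes, alpha3 beta1 also binds laminin-332, alpha2 beta1 binds collagen, and alphav beta6 binds the latent form of TGF-beta. ATF3 binds DNA as a basic leucine zipper dimer, at the AP-1 site and at the ATF/CRE site.

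The sequences under some of the leading ATF3-CPT peaks are shown because AP-1 cores were present in some of these genes' highest sites and missing from others. They were read from the plus strand of GRCh37 (hg19). Capitals mark the AP-1 core TGACTCA, which reads TGAGTCA on the other strand. The ITGB4 promoter site overlaps untranslated exon sequence of ITGB4 in part, and the ITGB4 upstream site that of the neighbouring gene SAP30BP. Both are given as the 30 bases round their cores. Introns are those of the representative (MANE Select) transcript, and the ITGA3 intron 3 site lies within other annotated exon sequence of ITGA3. The ITGB1 promoter site overlaps 44 exon bases of ITGB1-DT.
LAMA3 intron 2 site, chr18:21299737-21299861: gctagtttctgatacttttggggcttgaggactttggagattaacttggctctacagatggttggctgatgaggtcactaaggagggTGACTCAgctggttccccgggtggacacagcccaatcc
LAMA3 internal promoter site, chr18:21452732-21452856: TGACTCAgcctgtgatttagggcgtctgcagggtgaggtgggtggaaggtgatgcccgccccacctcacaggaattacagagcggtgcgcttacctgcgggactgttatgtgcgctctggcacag
LAMB3 promoter site, chr1:209826469-209826593: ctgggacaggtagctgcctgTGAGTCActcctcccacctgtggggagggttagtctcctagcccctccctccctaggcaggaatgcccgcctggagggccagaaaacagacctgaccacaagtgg
ITGA2 promoter site, chr5:52283828-52283952: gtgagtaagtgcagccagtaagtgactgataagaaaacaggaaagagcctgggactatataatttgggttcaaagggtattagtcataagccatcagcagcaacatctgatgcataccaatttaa
ITGA3 intron 3 site, chr17:48142149-48142273: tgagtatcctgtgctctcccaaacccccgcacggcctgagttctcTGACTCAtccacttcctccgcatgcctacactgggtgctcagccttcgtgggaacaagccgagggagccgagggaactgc
ITGA6 intron 1 site, chr2:173306876-173307000: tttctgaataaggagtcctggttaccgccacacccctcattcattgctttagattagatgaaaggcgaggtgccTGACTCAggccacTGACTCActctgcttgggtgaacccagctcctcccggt
ITGB1 promoter site, chr10:33247284-33247408: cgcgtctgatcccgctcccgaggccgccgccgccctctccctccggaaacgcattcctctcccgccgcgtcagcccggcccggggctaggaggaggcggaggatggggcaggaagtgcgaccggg
ITGB4 promoter site, chr17:73717460-73717489: tgcagccggtcTGACTCAccagcgcctcct
ITGB4 upstream site, chr17:73699843-73699872: ttcTGAGTCAtttgtcatcTGAGTCAttcg
ITGB6 upstream site, chr2:161062152-161062276: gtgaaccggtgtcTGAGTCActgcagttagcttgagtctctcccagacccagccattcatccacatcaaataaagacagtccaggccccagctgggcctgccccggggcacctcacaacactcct
Both LAMA3 sites, the LAMB3 promoter, ITGA3 intron 3, ITGB4 promoter and ITGB6 upstream sites held 1 core each, and the ITGA6 intron 1 site and the ITGB4 upstream site held 2. The ITGA2 and ITGB1 promoter sites held no TGACTCA and no TGACGTCA. The highest ITGB4 site, 14.1 kb upstream (58.2), and the ITGA2 intron 2 site (60.2) are not shown, and neither held an AP-1 core. The ITGB4 upstream site shown lies 17.5 kb upstream and was called after camptothecin alone (30.4). Higher peaks of that kind in ITGA6 (33.0) and LAMB3 (32.3), also not shown, held no AP-1 core.

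ATF3 was called at all 8 genes before camptothecin, where 65.2% of all protein-coding windows had a peak, and at all 8 after it, where 81% had one. Each of the 8 had more peaks after camptothecin, as did 63.4% of all protein-coding genes, a share that includes genes without any ATF3 peak. LAMA3 went from 7 to 14 peaks, ITGA6 from 6 to 12, ITGA2 from 7 to 11 and ITGA3 from 3 to 7. The other 4 genes gained fewer: ITGB1 went from 10 to 12, ITGB4 from 4 to 6, ITGB6 from 3 to 5 and LAMB3 from 5 to 6. These counts are not corrected for length. LAMA3 had the longest window, 286.8 kb, and 4.88 ATF3-CPT peaks per 100 kb, with only ITGB6 lower (4.14). ITGA3 (12.8) and ITGA6 (12.1) had the highest densities. The 8 windows held 4.79 ATF3-Ctrl and 7.77 ATF3-CPT peaks per 100 kb, beside 1.57 and 3.24 over all protein-coding windows joined. In proportion, the 8 windows thus gained fewer peaks than all windows joined. The larger ATF3-CPT library had 12.8% of its tags in peaks and ATF3-Ctrl had 5.6%, a difference that moves with the higher number of peaks and whose part in it was not tested.

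**Figure D1:**
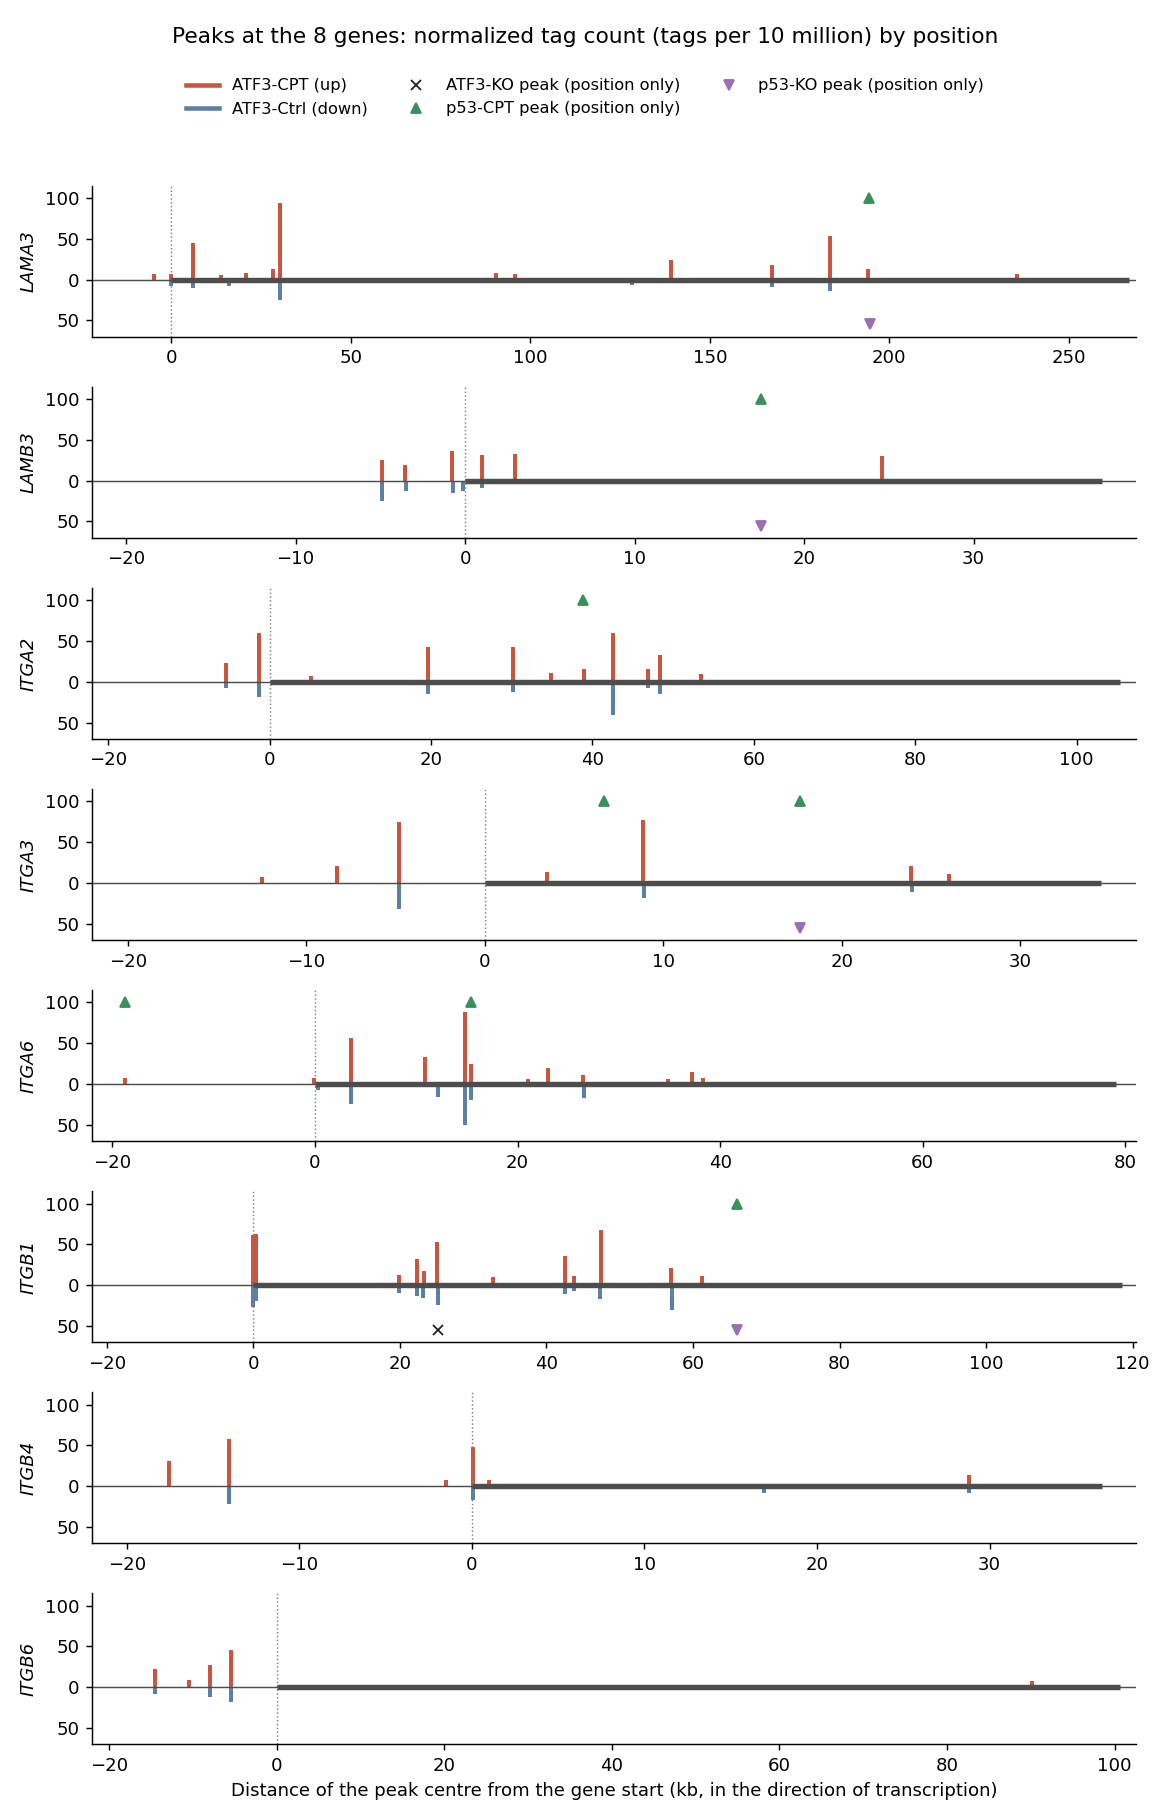
Position and normalized tag count (tags per 10000000) of the peaks at the 8 genes, by distance from the gene start in kb, with ATF3-CPT drawn upwards, ATF3-Ctrl drawn downwards and the gene as a thick line; marks at a fixed height give only the positions of ATF3-KO, p53-CPT and p53-KO peaks. The ATF3-CPT bars of LAMA3 and ITGA6 reach 93.8 and 88.0, and the single ATF3-KO mark is in ITGB1.

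ATF3-KO had 1 peak in the 8 windows, 25.2 kb inside the annotated ITGB1 gene (7.8 normalized tags), and so marked 1 of 8 genes, beside 11.4% of all protein-coding windows. It overlapped 1 of 45 ATF3-Ctrl peaks (2.22%, interval 0.393 to 11.6), where the share over all ATF3-Ctrl peaks was 5.38%. Of the 45, 40 had a peak score of at least 11, the lowest score the ATF3-KO list could hold.

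By place, peaks within 2 kb of the start of any protein-coding transcript were counted as promoter peaks, the rest as gene body or upstream. Before camptothecin 11 peaks lay in promoters, 25 in gene bodies and 9 upstream, and after it 14, 45 and 14. By the representative (MANE Select) transcript, 41 of the 73 ATF3-CPT peaks were intronic, 21 of them in the first intron, 2 were exonic and 30 lay outside that transcript. Of the 34 ATF3-CPT peaks without an ATF3-Ctrl peak, 23 were in gene bodies, 6 upstream and 5 in promoters. The gene-body share was 67.6%, and it leaves out promoter peaks that lie inside the genes. The genes make up 83.0% of the length of the windows with those promoter stretches included, so these values are not like for like. The promoter share, 14.7%, stands beside 18.2% over all ATF3-CPT peaks without an ATF3-Ctrl peak. The higher number of promoter peaks after camptothecin depends on the definition: within 1 kb of a start there were 9 before and 9 after, and within 2 kb of the 8 gene starts alone 9 before and 10 after. That last count uses the annotated ITGB1 start, which lies 47562 bp upstream of the start of its representative transcript.

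**Figure D2:**
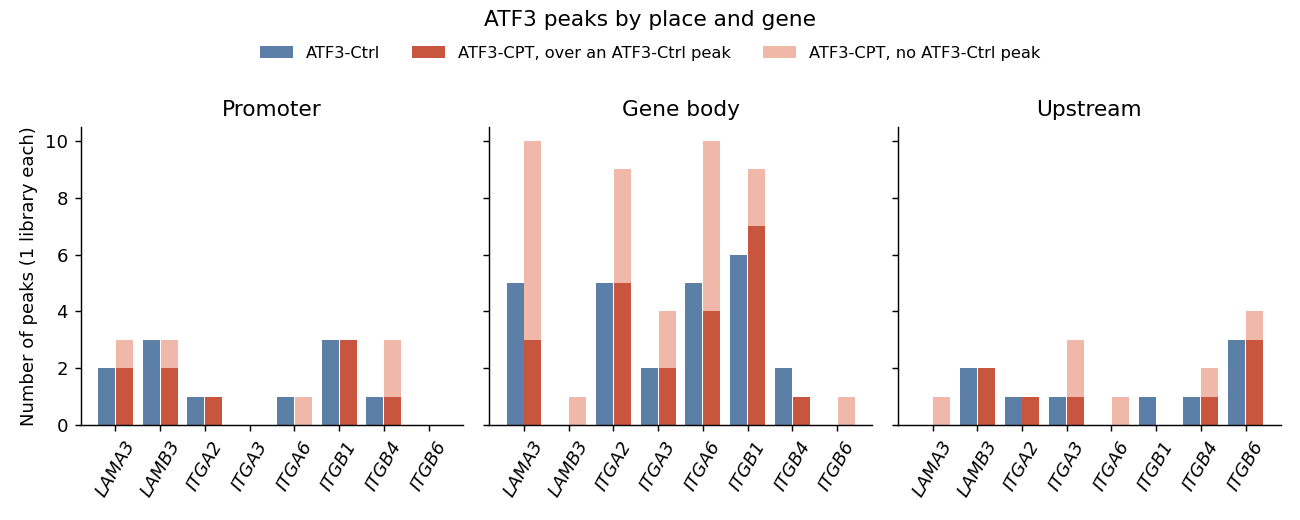
Number of ATF3 peaks in promoters, gene bodies and upstream for each of the 8 genes, with ATF3-CPT peaks split by whether they overlap an ATF3-Ctrl peak; each bar is 1 library. LAMA3 and ITGA6 have 10 gene-body peaks each after camptothecin, and ITGA3 and ITGB6 have no promoter peak in either library.

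Most sites bound before camptothecin were bound after it. Of the 45 sites called in ATF3-Ctrl, 39 were also called in ATF3-CPT, with an overlap of at least 1 bp (86.7%, Wilson interval 73.8 to 93.7), beside 79.8% of all ATF3-Ctrl peaks. In the other direction, 39 of 73 ATF3-CPT peaks overlapped an ATF3-Ctrl peak (53.4%, 42.1 to 64.4), beside 38.3% of all. These intervals treat neighbouring peaks of a gene as separate draws, so no difference from all peaks is read from them. With windows that start at the representative transcript, the second share was 49.3%. At the 39 shared sites the ATF3-CPT to ATF3-Ctrl ratio of normalized tag counts had a median of 2.3 and ran from 0.583 to 4.45, while the median over all 27104 shared sites was 1.79, a shift of 0.84 on the log2 scale. At least 1.5-fold higher values were found at 29 of the 39 (74.4%), beside 60.5% of all shared sites, and at least 1.5-fold lower values at 1, beside 6.46%. The counting interval of the ratio lay above 1 at 27 sites and below 1 at 0. Scaled to the tags in peaks instead of all tags, the median ratio was 1.01 and 21 of 39 sites stayed above 1. The median of all shared sites was then 0.787, so the direction at single sites depends on the scaling. Ratios given below for single genes, and differences there called beyond counting error, hold for scaling to all tags only.

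**Figure D3:**
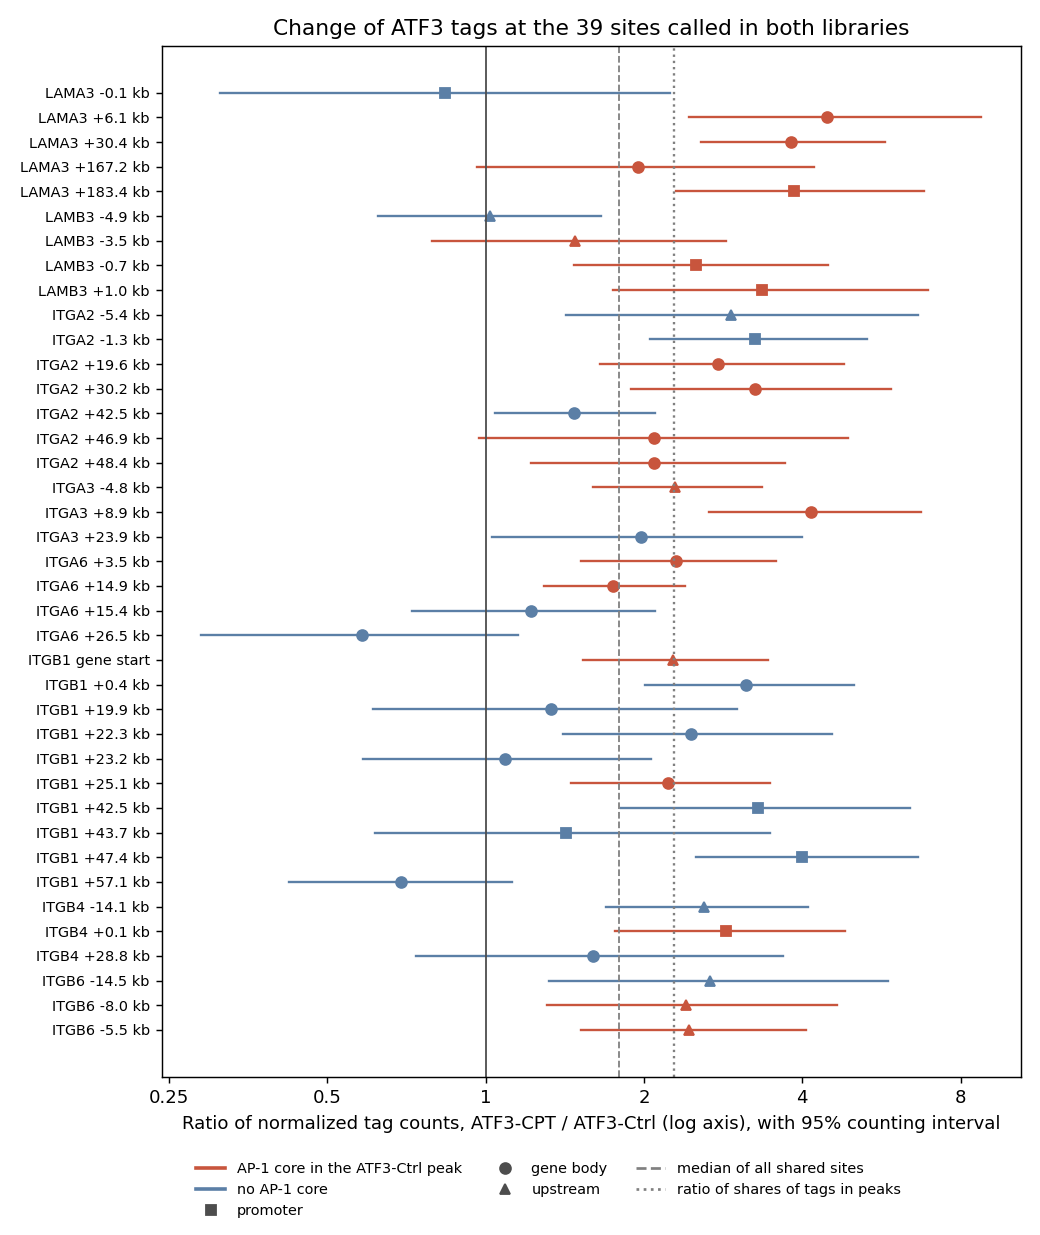
Ratio of ATF3-CPT to ATF3-Ctrl normalized tag counts on a log axis at the 39 sites called in both libraries, named by gene and distance from its start, with 95% counting intervals; colour gives the AP-1 core in the ATF3-Ctrl peak and shape the place. The dashed line is the median of all shared sites (1.79), the dotted line the ratio of the shares of tags in peaks (2.28), and 36 of the 39 points lie above 1.

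LAMA3 (chr18:21269417-21536186, plus strand) encodes the alpha3 chain and had its highest site in intron 2, 30.4 kb into the gene. That site had 24.7 normalized tags in ATF3-Ctrl and 93.8 in ATF3-CPT, a ratio of 3.8 (2.57 to 5.75). An intron 1 site at 6.1 kb went from 10.0 to 44.6, the highest ratio among the 39 sites at 4.45 (2.44 to 8.77). Both intronic sites held an AP-1 core, and their values before and after camptothecin differed beyond counting error. LAMA3 also has a start inside the gene, from which a shorter transcript is made, and the promoters behaved unlike each other. The site 143 bp from that inner start had 13.9 normalized tags before and 53.7 after camptothecin, a ratio of 3.86 (2.3 to 6.83). The site at the outer promoter, 67 bp upstream of the gene start, had 7.7 before and 6.5 after, a ratio of 0.838 (0.313 to 2.24). The intervals of these ratios do not overlap, and the outer site held no AP-1 core. Of the 14 ATF3-CPT peaks 9 had no ATF3-Ctrl peak, the highest of them 139.2 kb into the gene at 23.9. The ATF3-CPT peak at 90.4 kb (8.4) was the only one in the 8 windows with the ATF/CRE core TGACGTCA.

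LAMB3 (chr1:209788215-209825770, minus strand) encodes the beta3 chain and carried its ATF3 peaks round the start of the gene. The site 726 bp upstream of the start had 14.7 normalized tags in ATF3-Ctrl and 36.9 in ATF3-CPT, a ratio of 2.51 (1.47 to 4.47). The site in intron 1, 993 bp past the gene start and 38 bp from a further transcript start, went from 9.3 to 31.1. Its ratio was 3.35 (1.75 to 6.93). The site 3.5 kb upstream, also with a core, had 13.1 before and 19.4 after, a ratio of 1.48 (0.789 to 2.86). The site 4.9 kb upstream, without a core, had the highest value before camptothecin, 25.5, and had 25.9 after it, a ratio of 1.02 (0.624 to 1.66). The shared promoter sites, both with an AP-1 core, thus differed beyond counting error, and at the upstream sites the intervals held 1. A promoter peak 132 bp upstream of the start, without a core (12.4), was called in ATF3-Ctrl and not in ATF3-CPT. After camptothecin, peaks without an ATF3-Ctrl counterpart appeared 3.0 kb (32.3) and 24.6 kb (30.4) into the gene.

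ITGA6 (chr2:173292082-173371187, plus strand) encodes the alpha6 subunit of the hemidesmosomal laminin receptor, and most of its ATF3 peaks were in intron 1. The site at 14.9 kb had 50.2 normalized tags in ATF3-Ctrl, the highest of the 8 genes before camptothecin, and 88.0 in ATF3-CPT, a ratio of 1.75 (1.29 to 2.39). The site at 3.5 kb went from 24.7 to 56.9, a ratio of 2.3 (1.52 to 3.57). The site at 26.5 kb had 17.8 before and 10.4 after, a ratio of 0.583 (0.288 to 1.15), the only one of the 39 at least 1.5-fold lower. ITGA6 had the lowest median ratio of the 8 genes, 1.49 over 4 sites. Its promoter peaks were low and did not overlap: 7.0 in ATF3-Ctrl, 288 bp past the gene start, and 7.1 in ATF3-CPT, 77 bp before it. A site at 12.2 kb with an AP-1 core (16.2) was called in ATF3-Ctrl alone, and one at 10.9 kb (33.0) in ATF3-CPT alone, the highest such peak of the 8 genes.

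ITGB4 (chr17:73717408-73753899, plus strand) encodes the beta4 subunit that pairs with alpha6. Its promoter site, 54 bp past the gene start, had 17.0 normalized tags in ATF3-Ctrl and 48.5 in ATF3-CPT, a ratio of 2.86 (1.76 to 4.82). The site 14.1 kb upstream, without a core, went from 22.4 to 58.2, a ratio of 2.6 (1.69 to 4.1). Both differed beyond counting error. This upstream site and the highest peak seen after camptothecin alone, 17.5 kb upstream at 30.4, lie inside the neighbouring gene SAP30BP, so their position does not assign them to ITGB4. The exon 28 site had 8.5 before and 13.6 after, with a ratio interval (0.737 to 3.67) that held 1.

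ITGA3 (chr17:48133332-48167845, plus strand) encodes the alpha3 subunit and had no promoter peak in either ATF3 library. Its intron 3 site, 8.9 kb into the gene, had 18.5 normalized tags in ATF3-Ctrl and 77.0 in ATF3-CPT, a ratio of 4.15 (2.66 to 6.74). The site 4.8 kb upstream, with 2 AP-1 cores, went from 32.4 to 74.4, a ratio of 2.29 (1.6 to 3.35). Both differed beyond counting error, as did the site at 23.9 kb, at 10.8 before and 21.3 after. Another 4 peaks were seen after camptothecin alone, the highest 8.3 kb upstream at 20.7.

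ITGB1 (chr10:33176201-33294720, minus strand) encodes the beta1 subunit shared by many integrins. Its annotated start lies 47562 bp upstream of the start of the representative transcript, and 9 of its 10 ATF3-Ctrl peaks and 10 of its 12 ATF3-CPT peaks lay upstream of the latter. All 10 ATF3-Ctrl sites were shared. The site at the main promoter, 158 bp from a transcript start, had 17.0 normalized tags in ATF3-Ctrl and 67.9 in ATF3-CPT, a ratio of 4.0 (2.51 to 6.65), the highest promoter ratio of the 8 genes. The site 42.5 kb from the annotated start, at a further promoter of the gene, went from 10.8 to 35.6, a ratio of 3.29 (1.81 to 6.41). Neither of these held an AP-1 core. At the annotated start itself a site with a core had 27.0 before and 61.5 after (2.27, 1.53 to 3.45). Its centre moved from 11 bp upstream to 7 bp inside the gene, which puts it in different places in the 2 lists. In ATF3-Ctrl that site lay 13340 bp from the nearest start of a protein-coding transcript, so it was not counted as a promoter site. Its neighbour, 385 bp inside, had 20.1 before and 62.8 after (3.13, 2.01 to 5.02). The intron 1 site at 57.1 kb, the highest of ITGB1 before camptothecin, had 30.9 then and 21.3 after (0.691, 0.422 to 1.12). The site under the ATF3-KO peak, with 7.8 in ATF3-KO, had 23.9 in ATF3-Ctrl and 53.1 in ATF3-CPT.

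ITGA2 (chr5:52285170-52390609, plus strand) encodes the alpha2 subunit of a collagen receptor, and all 7 of its ATF3-Ctrl sites were also called in ATF3-CPT with a higher value. Its promoter site, 1303 bp upstream of the start, had 18.5 normalized tags in ATF3-Ctrl and 60.2 in ATF3-CPT, a ratio of 3.25 (2.05 to 5.32). The highest site before camptothecin, 42.5 kb into the gene in intron 2, went from 40.9 to 60.2, a ratio of 1.47 (1.04 to 2.1). The promoter and intronic values, unequal before, were thus equal after. Intron 1 sites at 19.6 kb and 30.2 kb, each with a core, had 15.4 and 13.1 before and 42.7 each after. The highest of 4 peaks seen after camptothecin alone was at 38.9 kb with 15.5.

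ITGB6 (chr2:160956178-161056824, minus strand) encodes the beta6 subunit of the epithelial receptor that activates TGF-beta. It had no promoter peak, and its 3 ATF3-Ctrl sites were all upstream. The nearest, 5.5 kb upstream, had 18.5 normalized tags in ATF3-Ctrl and 45.3 in ATF3-CPT, a ratio of 2.44 (1.52 to 4.06). The sites 8.0 kb and 14.5 kb upstream had 11.6 and 8.5 before and 27.8 and 22.6 after. All 3 intervals lay above 1 and the ratios, 2.4 to 2.67, were close to each other.

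Ordered by the highest ATF3-CPT peak, the genes ran LAMA3 (93.8, Poisson interval 79.2 to 110.4), ITGA6 (88.0), ITGA3 (77.0), ITGB1 (67.9), ITGA2 (60.2), ITGB4 (58.2), ITGB6 (45.3) and LAMB3 (36.9, 27.9 to 47.8). No 2 neighbours in that order differed beyond their intervals, while LAMA3 and LAMB3 did. Before camptothecin the order was ITGA6 (50.2), ITGA2 (40.9), ITGA3 (32.4), ITGB1 (30.9), LAMB3 (25.5), LAMA3 (24.7), ITGB4 (22.4) and ITGB6 (18.5). LAMA3 thus stood at the top after camptothecin and not before it.

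**Figure D4:**
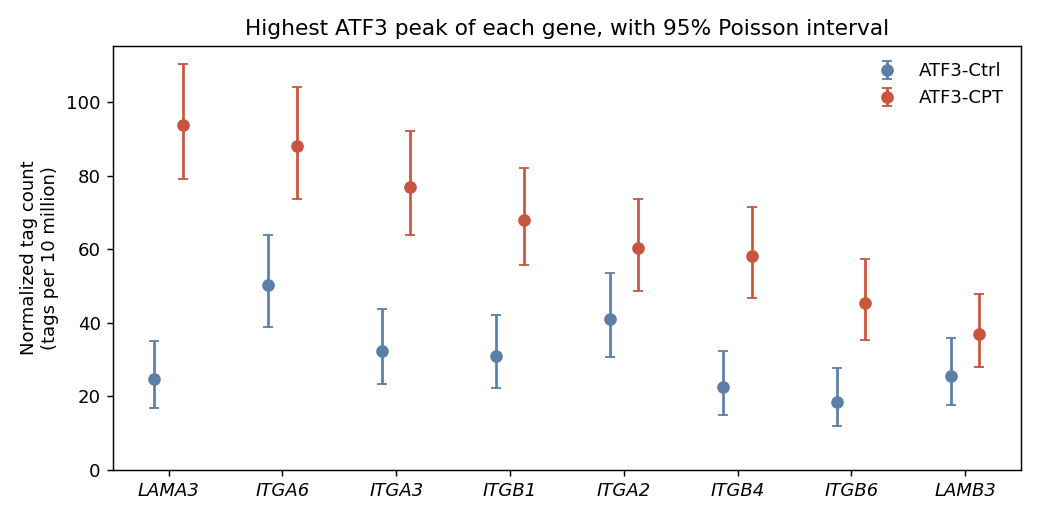
Highest ATF3 peak of each gene in each library, as normalized tag count (tags per 10000000) with its 95% Poisson interval; the 2 points of a gene need not be the same site. LAMA3 runs from 24.7 to 93.8, and LAMB3, the lowest after camptothecin, from 25.5 to 36.9 with overlapping intervals.

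The 9 shared promoter sites had a median ratio of 3.25 and 7 were at least 1.5-fold higher, beside a median of 1.4 and 45.6% over all shared promoter sites. The 21 gene-body sites had a median of 2.09 with 15 at least 1.5-fold higher, and the 9 upstream sites 2.4 with 7, beside 1.99 and 66.2% over all shared sites outside promoters. Scaled to the tags in peaks, these medians were 1.42 (promoter), 0.919 (gene body) and 1.05 (upstream). Over all shared sites they were 0.612 in promoters and 0.873 outside them. An AP-1 core was in 21 of 45 ATF3-Ctrl peaks (46.7%, 32.9 to 60.9), beside 31% of all, and in 31 of 73 ATF3-CPT peaks (42.5%, 31.8 to 53.9), beside 40.6% of all and 2.06% of windows of the same length 1000 bp to either side of them. The core lay a median of 16 bp from the centre of the ATF3-CPT peaks. The 20 shared sites with a core in the ATF3-Ctrl peak had a median ratio of 2.42 and 19 were at least 1.5-fold higher, and the 19 without had a median of 1.6 with 10 at least 1.5-fold higher. Over all shared sites the medians were 2.42 with a core (85.8% at least 1.5-fold higher) and 1.4 without (45.7%), so the same split was present there. The TEAD core GGAATG, on either strand, was in 10 of 45 ATF3-Ctrl peaks (22.2%, 12.5 to 36.3), beside 12.8% of all, and in 9 of 73 ATF3-CPT peaks (12.3%), beside 13.0%.

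Peaks called after camptothecin alone were low. The 34 had a median of 9.05 normalized tags (5.8 to 33.0) and the 39 shared ATF3-CPT peaks a median of 35.6, beside 8.4 and 22.6 over all ATF3-CPT peaks of each kind. At the same level in the ATF3-Ctrl library 29 of the 34 would have given at least 9 tags, its score threshold, and 9 at least 18. Absence from the ATF3-Ctrl list is not absence of tags, and no ratio is given for these sites. An AP-1 core was in 11 of the 34 (32.4%, 19.1 to 49.2), beside 41.3% of all ATF3-CPT peaks without an ATF3-Ctrl peak. Of the 6 ATF3-Ctrl peaks not called after camptothecin, with 7.0 to 16.2 normalized tags, 1 held a core.

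p53 was called at 6 of the 8 genes, where 21.8% of all protein-coding windows had a p53-CPT peak, and 4 of the 8 had a p53-KO peak, where 17.4% had one. None of these shares is corrected for window length. Of the 8 p53-CPT peaks 4 overlapped a p53-KO peak, beside 60.9% of all p53-CPT peaks. These lay in LAMA3 at 194.4 kb (50.5 normalized tags in p53-CPT and 75.6 in p53-KO), LAMB3 intron 5 (72.6 and 120.9), ITGA3 intron 7 (59.9 and 55.4) and ITGB1 intron 1 (50.5 and 100.8). At 3 of these 4 the knockout library had the higher normalized value, with counting intervals that overlapped at each. The tags themselves were 16 in p53-CPT and 15 in p53-KO at LAMA3, 23 and 24 at LAMB3, and 16 and 20 at ITGB1. The other 4 were in ITGA3 intron 1 (63.1), ITGA2 intron 2 (31.5), and ITGA6 intron 1 (18.9) and 18.7 kb upstream of ITGA6 (18.9). Each ITGA6 peak rested on 6 tags, and the same level in the p53-KO library would have been 3.8 tags, under its threshold of 6, so a matching background peak there was not detectable. ITGA2 rested on 10 tags and ITGA3 on 20, which would have been 6.3 and 12.5 there.

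Among all 8 p53-CPT peaks, 3 overlapped an ATF3-CPT peak, beside 10.5% of all p53-CPT peaks: those of ITGA2 intron 2, ITGA6 intron 1 and upstream of ITGA6. ATF3 had 15.5, 24.6 and 7.8 normalized tags at them. The ITGA6 intron 1 site was the only one with ATF3 called before camptothecin, at 20.1, and its ATF3 ratio was 1.22 (0.724 to 2.1). The best match to the 20-base p53 motif, a pair of decamers each read as 3 purines, CWWG and 3 pyrimidines, is in capitals in the 60 bases shown for the pair of sites within 3 mismatches of it.
ITGA6 intron 1 p53 site, chr2:173307523-173307582: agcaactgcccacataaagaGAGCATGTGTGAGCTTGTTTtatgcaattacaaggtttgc
ITGA2 intron 2 p53 site, chr5:52323996-52324055: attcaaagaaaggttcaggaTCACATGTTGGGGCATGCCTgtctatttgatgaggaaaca
The ITGA6 site had 1 mismatch and the ITGA2 site 3. These were 2 of 8, and 20.3% of all p53-CPT peaks held such a match, 44.6% of those without a p53-KO peak and 4.65% of those with one. No p53 peak was called at ITGB4 or ITGB6.

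Most genes of the related lists also had more ATF3 peaks after camptothecin, 18 of 20 other integrin subunits and 10 of 12 integrin partners. Of 20 other integrin subunits, 16 had a peak in both ATF3 libraries, with 18 of 31 shared sites at least 1.5-fold higher, 3 at least 1.5-fold lower and a median ratio of 2.27. All 12 hemidesmosome and cytoplasmic integrin partners had a peak in both, with 31 of 51 shared sites higher, 1 lower and a median of 2.05. In that list CD151, a tetraspanin bound to laminin-binding integrins, went from 50.2 to 122.9 at its highest peak, and PLEC, which links integrin beta4 to intermediate filaments, from 45.6 to 113.9. The peak densities of these lists, 1.71 and 4.11 per 100 kb in ATF3-Ctrl and 4.43 and 9.23 in ATF3-CPT, were lower than those of the 8 genes except that of the partner list after camptothecin. LAMA3, with the most ATF3-CPT peaks and the longest window of the 8, shared its counts of 7 and 14 with 16 other genes. Of these, TXNRD1, LUZP1 and MAPKAP1 were nearest in summed ATF3-CPT tags.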

How the data were processed

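ATF3 and p53 ChIP-seq was analysed in 5 libraries of HCT116 cells, 1 library for each condition. Per the labels and the file headers, the authors aligned reads to hg19 and called peaks in each library separately, without an input library (BWA 0.6.1 and HOMER 4.1 in the submitters' processing notes), at a false discovery rate of 0.001, with at least 4-fold more tags than the surrounding 10 kb (p = 1e-04) and at most 1 tag per position. The deposited normalized tag count is a coverage signal scaled to 10000000 tags. The deposited score is the position-adjusted tag number of the peak. Recovered tags were whole for 100% of peaks.

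Gene and transcript starts came from GENCODE release 44 on GRCh37, and all peaks lay within its chromosomes. Peaks were paired where they overlapped by at least 1 bp. Each ATF3-Ctrl peak was set against its highest overlapping ATF3-CPT peak, and the ratio received an exact conditional binomial interval from the recovered tags (Python 3.11.15, numpy 2.4.6, pandas 2.3.3, scipy 1.17.1, pysam 0.24.0). Shares received Wilson intervals and peak values Poisson intervals. Ratios of at least 1.5-fold were counted as higher or lower. The pairing and interval code was tested on simulated data. Motif shares over all peaks used the main chromosomes only.

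The genes and related lists were chosen with earlier results of these data known. The list of other laminin chains is not reported here. Peaks named singly were the highest of each gene in each place, all ATF3-KO, p53-CPT and p53-KO peaks and the highest peak found only after camptothecin, and further sites were named after their values were seen. Another 10 settings, and 1 chosen after seeing the data, were also run, and the closing section gives values for some of them.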

Additional observations from a re-analysis of the deposited data

How the results depend on the processing

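Of the 53 values recomputed under alternative settings, 45 were classed as the same, 8 moved and 0 reversed. Peak counts classed as the same still depended on the window. With 50 kb upstream instead of 20 kb there were 60 ATF3-Ctrl, 93 ATF3-CPT and 11 p53-CPT peaks. With 5 kb upstream there were 40, 63 and 7. Keeping only peaks with a score of at least 20 left 22 ATF3-Ctrl peaks, 47 ATF3-CPT peaks and 1 p53-CPT peak, raised the share of ATF3-Ctrl peaks with an ATF3-CPT peak to 95.5% and raised the share of ATF3-CPT peaks with an AP-1 core to 55.3%. Scaling to the tags in peaks moved the median ratio from 2.3 to 1.01. Leaving out peaks that overlap a knockout peak left 4 of 8 p53-CPT peaks. A promoter of 1 kb on either side held 9 ATF3-CPT peaks instead of 14 and 9 ATF3-Ctrl peaks instead of 11, which ends the difference between them. Starting each window at the representative transcript, an alternative chosen after seeing the data, gave 39 ATF3-Ctrl and 67 ATF3-CPT peaks and a median ratio of 2.4, because 6 ATF3 peaks of ITGB1 in each library then fell outside. No paired analysis was possible because each condition had 1 library. The depth of the p53 libraries, 3169743 and 1984941 tags, limits what their lists can hold.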
